A study of Mus musculus with 12 samples.

Results

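This account covers 37 mouse genes of the centromere and kinetochore, measured as messenger RNA in colonic mucosa. They were chosen by name, as genes for centromeric chromatin, the inner and outer kinetochore, the SKA and RZZ complexes, the fibrous corona and 2 nuclear pore subunits found at kinetochores. The 37 also include Cenpj, a centriole assembly gene with a centromere protein name. Each of the 37 names matched 1 of the 38087 genes in the count tables. All 37 had a mean of 5 or more raw counts over the 12 libraries, and all 37 passed the filter on low counts, so none was left out.

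The series holds 6 samples of wild type mice and 6 of mice labelled Sgo1 -/+, written here as Sgo1-/+. Sgo1 encodes shugoshin 1, which shields cohesin at the centromere from early removal in mitosis, and the series concerns the effect of chromosome instability on the colon. Mice of both genotypes had received azoxymethane, an alkylating colon carcinogen, at 4 mg/kg 2 times a week from 8 to 12 weeks of age, and tissue was taken at 9 months. So there is no group without carcinogen, and the genotypes differ on that shared background. The sources used here do not state how the Sgo1 allele was made, the strain or the sex of the mice. Nor do they state that each sample was a separate animal, so a p-value measures only the spread among these samples, which may be technical.

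The kinetochore is the protein structure that joins a chromosome to the spindle. It is built on nucleosomes that carry the histone variant CENP-A. A constitutive inner layer sits on that chromatin throughout the cell cycle, and an outer layer that binds microtubules is loaded on it for mitosis. In the colon dividing cells lie in the lower crypt, so transcripts of many of these genes, which peak in G2 and mitosis, come from a minority of mucosal cells. In bulk RNA, fewer dividing cells and less of a transcript per cell cannot be told apart.

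Library totals ran from 5711553 to 10198304 counts. Of a library's counts on genes with an Ensembl identifier, 10.5% to 38.8% fell on 3 mitochondrial-like predicted genes (Gm13340, Gm13341 and Gm11410). Wild type replicates 3 and 5 and Sgo1-/+ replicate 3 were above all others. Levels are given as CPM, read counts brought to a common library size after scaling by trimmed means (TMM), which compares libraries over the bulk of genes. Markers of colonic epithelium summed to between 17430 and 30980 CPM in every library. Markers of T cells, smooth muscle and fibroblasts each summed to 33.9 CPM or less, and of these Actg2, of smooth muscle, was at 0 in 1 library.

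Because members of this group are known as cell cycle genes, the 300 bases around their transcription starts (250 before and 50 after) were searched in the RefSeq promoters of build GRCm38.p6, where 33 of the 37 members matched. The searched elements were the cell cycle gene homology region or CHR (TTTGAA or TTCGAA), the CCAAT box (CCAAT) and E2F sites (TTTCCCGC, TTTCGCGC, TTTGCCGC or TTTGGCGC), each on both strands. A CHR was found in 16 of 33 members or 48.5%, against 14.2% of 11969 promoters of genes tested here and 19.2% of all 32851 promoters. It lay within 50 bases of the start in 11 members (33.3%, against 3.94% of tested genes), a distance chosen after the matches were seen. CCAAT was found in 57.6% of members and 37.8% of tested genes, an E2F site in 15.2% and 3.78%, and CHR together with CCAAT in 33.3% and 5.83%. None of the 3 was found in 7 of the 33, namely Cenpo, Cenpp, Cenpt, Nuf2, Nup107, Nup133 and Cenpj. These are matches of letters and not shown to be sites in use. The stretches below, 190 bases before to 30 after the start, 5′ to 3′ on the gene's strand, are shown for 4 members with an unadjusted p under 0.05 and a CCAAT box (Cenpa, Hjurp, Spc25 and Cenpe) and for Cenpt, the member whose genotypes did not overlap. Capitals mark CHR, CCAAT and E2F matches on either strand. The CHR of Cenpa, Hjurp and Spc25 lies just after the RefSeq start, the stretch of Cenpe holds a CCAAT box alone, and that of Cenpt holds none. All distances are from the RefSeq start. The gene positions given further below start Cenpa and Hjurp upstream of it, so their CHR lies further inside those gene models.
Cenpa, chr5:30666696-30666915, plus strand: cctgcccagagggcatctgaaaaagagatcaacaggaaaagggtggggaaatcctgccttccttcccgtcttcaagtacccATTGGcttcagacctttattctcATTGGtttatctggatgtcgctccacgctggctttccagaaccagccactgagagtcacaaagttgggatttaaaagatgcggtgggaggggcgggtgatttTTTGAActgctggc
Hjurp, chr1:88277550-88277769, minus strand: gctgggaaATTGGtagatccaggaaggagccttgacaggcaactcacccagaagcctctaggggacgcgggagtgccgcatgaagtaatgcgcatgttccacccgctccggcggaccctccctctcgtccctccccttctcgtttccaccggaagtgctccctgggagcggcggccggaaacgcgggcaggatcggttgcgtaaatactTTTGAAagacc
Spc25, chr2:69206184-69206403, minus strand: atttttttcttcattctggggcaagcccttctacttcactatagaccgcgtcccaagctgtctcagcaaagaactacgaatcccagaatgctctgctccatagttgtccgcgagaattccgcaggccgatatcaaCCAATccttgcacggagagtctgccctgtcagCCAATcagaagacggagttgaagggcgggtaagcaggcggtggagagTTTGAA
Cenpe, chr3:135212373-135212592, plus strand: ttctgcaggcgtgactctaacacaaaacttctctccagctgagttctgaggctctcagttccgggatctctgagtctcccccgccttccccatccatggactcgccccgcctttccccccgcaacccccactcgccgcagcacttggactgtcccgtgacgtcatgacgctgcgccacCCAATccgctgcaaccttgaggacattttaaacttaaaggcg
Cenpt, chr8:105851979-105852198, minus strand: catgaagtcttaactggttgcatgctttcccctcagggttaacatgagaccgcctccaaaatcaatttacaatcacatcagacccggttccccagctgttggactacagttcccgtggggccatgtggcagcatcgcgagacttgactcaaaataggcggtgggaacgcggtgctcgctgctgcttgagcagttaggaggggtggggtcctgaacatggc

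The members differed widely in level. Per kilobase of exon model, Cenpb stood first with a mean of 23.7 CPM per kilobase over the 12 libraries. These models join all exons of a gene, and for some members they differ from the gene positions deposited with the counts. For Cenpb the model spans positions 131175182 to 131180067 and the deposited gene 131177291 to 131180012. For Cenpw they span 30194569 to 30200560 and 30196011 to 30200540. The order between genes is therefore approximate. CENP-B binds a short motif in centromeric satellite DNA. Its lowest library, at 20.2, lay above the highest library of every other member. Hjurp, the chaperone that deposits CENP-A, followed at 7.81 CPM per kilobase, then Mis12, of the outer kinetochore, at 5.30 and Zw10, of the RZZ complex, at 4.35. The range of Mis12, 3.23 to 7.73, overlapped that of Hjurp, 5.44 to 9.88, and that of Zw10, 3.35 to 5.03. Every Hjurp library lay above every Zw10 library. Cenpa itself, the centromeric histone, was at 1.99 CPM per kilobase with a range of 1.18 to 3.06. The lowest were Cenpw at 0.356, Cenpn at 0.494, Cenpk at 0.513 and Cenpt at 0.622, all genes of the inner kinetochore. From Spc24, the fifth, to Cenpw each member's range overlapped that of the next. Raw counts were low for much of the group. Means ran from 12.6 counts per library for Cenpw to 925.9 for Cenpb, and 13 members had a mean under 30, so counting error alone is large for these.

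**Figure D1:**
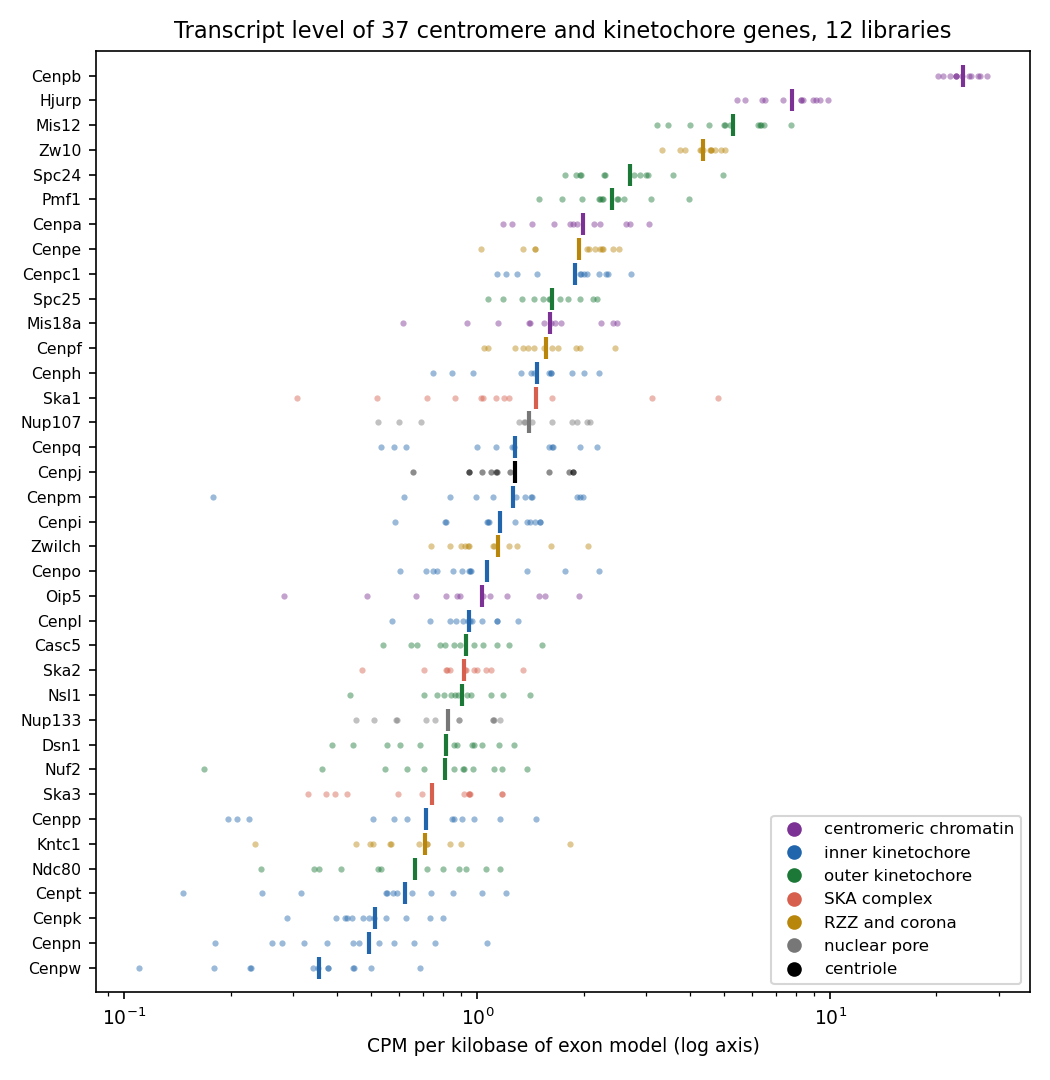
Transcript level of each of the 37 members in CPM per kilobase of exon model on a log axis, with a point per library, a bar at the mean over 12 libraries and colour by role. Cenpb stands apart at 23.7, Hjurp follows at 7.81, and the inner kinetochore gene Cenpw is lowest at 0.356. The exon models differ from the deposited gene positions for some members, so the order is approximate.

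The targeted transcript was examined first. Sgo1, listed as Sgol1, had a lowest, median and highest level of 1.49, 3.51 and 6.80 CPM in wild type and of 1.84, 2.38 and 2.77 CPM in Sgo1-/+. The genotypes overlapped: 4 wild type libraries were above every Sgo1-/+ library, replicate 4 was within their range and replicate 1 was below all of them. The difference in mean log2 CPM was -0.49 (exact two-sided permutation p = 0.126). The value depended on the libraries and the scaling. Leaving out wild type replicate 1 gave -0.69 (exact permutation p = 0.00649). Leaving out replicate 2 of wild type gave -0.27 (exact permutation p = 0.279). With library totals alone it was -0.18 (exact permutation p = 0.673).

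Comparing the genotypes, 26 of the 37 members had a log2 change above 0 (higher in Sgo1-/+) and 11 below it, and none passed an adjusted p of 0.05 over all genes. The median log2 change of the members was 0.23, against -0.0057 for all 13889 genes tested, of which 49% were above 0. In the edgeR quasi-likelihood test the members' adjusted p-values ran from 0.491 to 0.993, and 0% of all genes were called. Limma-voom called 0 members and 0% of all genes. DESeq2 called 0 members and 0.211% of the 18939 genes that it gave an adjusted p. Hjurp was the nearest member there, at an adjusted p of 0.0864. An unadjusted p under 0.05 was reached in edgeR by 9 members, 24.3%, against 9.04% of all genes. Of these, 7 were higher in Sgo1-/+ (18.9% of members, against 4.31% of all genes) and 2 lower (5.41%, against 4.73%). DESeq2 also had 9 at that level, against 9.93% of all genes. The 7 higher were Hjurp, Cenpt, Cenpp, Mis18a, Cenpe, Spc25 and Cenpa, and the 2 lower were Cenpo and Ska1.

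The direction of the members close to 0 depended on the scaling. With library totals alone the median of all genes moved to 0.31, the members' median was 0.51, and 34 of 37 were above 0, with 10 higher and 0 lower at an unadjusted p under 0.05, against 12.2% of all genes. Read against that shifted median, 27 of 37 members lay above it, beside 26 of 37 above the all-gene median with TMM scaling. The 8 members that moved from below to above 0 were Oip5, Cenpk, Mis12, Ska2, Zwilch, Kntc1, Cenpf and Cenpj. The members' median also moved with wild type replicate 1, without which it was 0.13, and with the share of mitochondrial-like counts as covariate it was 0.093. A suffix stands in the names of the value columns of 4 libraries, namely replicates 1 and 6 of wild type and 5 and 6 of Sgo1-/+. In the 4 libraries per genotype that lack it the members' median was 0.19, with 23 of 37 members above 0 and 1 at an unadjusted p under 0.05, against 3.98% of all genes. In the 2 per genotype that have it these values were 0.38, 26 and 9, against 13.97%. The Sgo1 difference was -0.60 in the libraries without the suffix (exact permutation p = 0.0857) and -0.24 in those with it (exact permutation p = 1, in a design too small to pass 0.05). Without the 3 libraries richest in mitochondrial-like counts the median was 0.22, with 27 of 37 above 0.

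Markers of dividing cells are given beside these values. Of 14 proliferation markers 13 had a log2 change above 0, where 49% of all genes did, with a median of 0.37. The changes were not uniform, from -0.17 for Tyms and 0.025 for Pcna to 0.65 for Mcm3. At an unadjusted p under 0.05 in edgeR, where 4.31% of all genes were higher, 6 of these markers were higher, and 0 were called. Those 6 were Mki67, Top2a, Ccna2, Ccnb1, Tpx2 and Birc5. The summed level of the 14 markers ran from 244.5 to 441 CPM in wild type, with a median of 281, and from 326 to 449 CPM in Sgo1-/+, with a median of 381. Mki67, which marks cells outside the resting state, was at 53.1, 62.8 and 129 CPM in wild type (lowest, median, highest) and at 90.3, 99.6 and 135 CPM in Sgo1-/+. Its log2 change was 0.53 ± 0.20 (SE; unadjusted p = 0.01925, adjusted p = 0.5265 in edgeR). The 5 wild type libraries other than replicate 2 were below every Sgo1-/+ library. Of 5 crypt base markers 5 had a log2 change above 0, where 49% of all genes did, with a median of 0.71. In edgeR 3 of these were higher at an unadjusted p under 0.05, against 4.31% of all genes, and 0 were called. Their summed level was 23.9 to 71.9 CPM in wild type and 41.1 to 104 CPM in Sgo1-/+. The part of either list in the members' values was not tested.

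**Figure D2:**
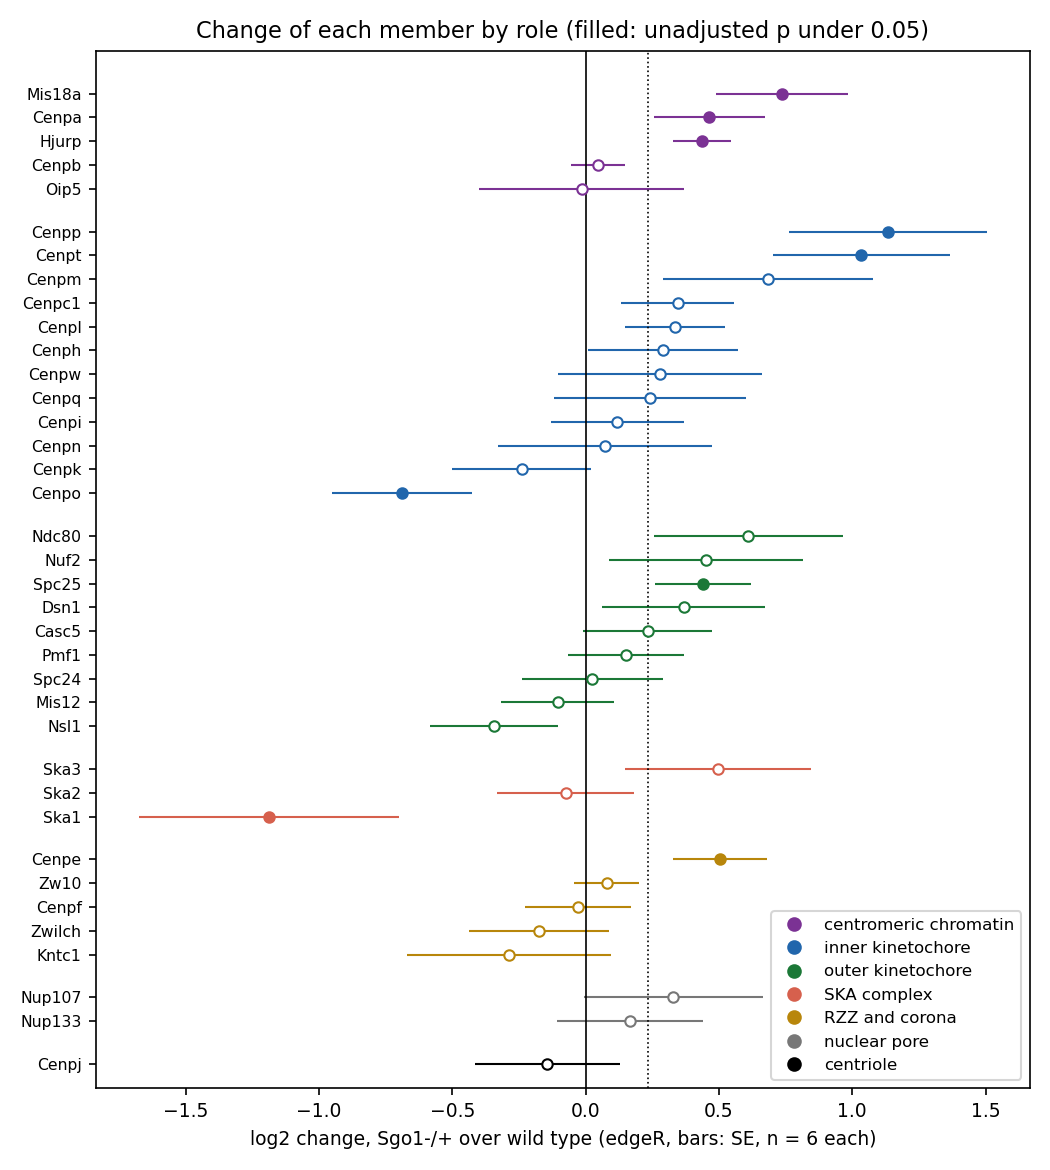
Log2 change of each member, Sgo1-/+ over wild type, from edgeR with its SE (n = 6 libraries per genotype), grouped and coloured by role, with filled symbols for an unadjusted p under 0.05 and a dotted line at the members' median of 0.23. The 7 filled symbols on the right are members of 4 role groups, Cenpo and Ska1 are the 2 on the left, and none passed an adjusted p of 0.05.

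Genes of centromeric chromatin had the highest median of the groups with 3 or more members, 0.44. Of these 5 genes 4 were above 0, against 49% of all genes. In edgeR 3 were higher at an unadjusted p under 0.05, against 4.31% of all genes. Hjurp (ENSMUSG00000044783, chromosome 1, positions 88262471 to 88277633 in mm10) was at 45.3, 54.0 and 69.1 CPM in wild type (lowest, median, highest) and at 68.9, 75.3 and 82.3 CPM in Sgo1-/+. Of the 6 Sgo1-/+ libraries 5 lay above every wild type library, and replicate 1 lay just below wild type replicate 2. Its means were 55.3 ± 8.81 and 74.9 ± 5.12 CPM (SD, n = 6 each). With a log2 change of 0.44 ± 0.11 (SE) on a mean of 545.9 counts, it had the smallest p of the 37 in edgeR (unadjusted p = 0.00151, adjusted p = 0.491).

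Mis18a encodes a subunit of the Mis18 complex, which readies centromeres for new CENP-A after mitosis (ENSMUSG00000022978, chromosome 16, positions 90719312 to 90727404). Its level was 1.76, 3.64 and 4.76 CPM in wild type and 4.44, 5.70 and 7.14 CPM in Sgo1-/+. Only wild type replicate 4 reached into the Sgo1-/+ range, and the log2 change was 0.74 ± 0.25 (SE; unadjusted p = 0.0102, adjusted p = 0.524 in edgeR). Oip5, the Mis18-beta subunit of the same complex, had a log2 change of -0.015 ± 0.39, with 2.33 to 36.3 counts per library. Its exons share 172 bases, 9.67% of its exon model, with the opposite-strand gene Nusap1, which had a mean of 101.8 counts.

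Cenpa (ENSMUSG00000029177, chromosome 5, positions 30666777 to 30674827) was at 6.93, 9.03 and 15.8 CPM in wild type and at 10.9, 12.8 and 17.9 CPM in Sgo1-/+. Wild type replicate 3 stood among the Sgo1-/+ libraries and the other 5 wild type libraries were below all of them. The log2 change was 0.46 ± 0.21 (SE; unadjusted p = 0.0443, adjusted p = 0.544 in edgeR), and 0.65 without wild type replicate 3. Cenpb, the most abundant member, was at 101.8, 112.9 and 128 CPM in wild type and at 98.5, 115.9 and 136 CPM in Sgo1-/+. Here the genotypes overlapped almost fully, with a log2 change of 0.046 ± 0.10 on a mean of 925.9 counts.

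**Figure D3:**
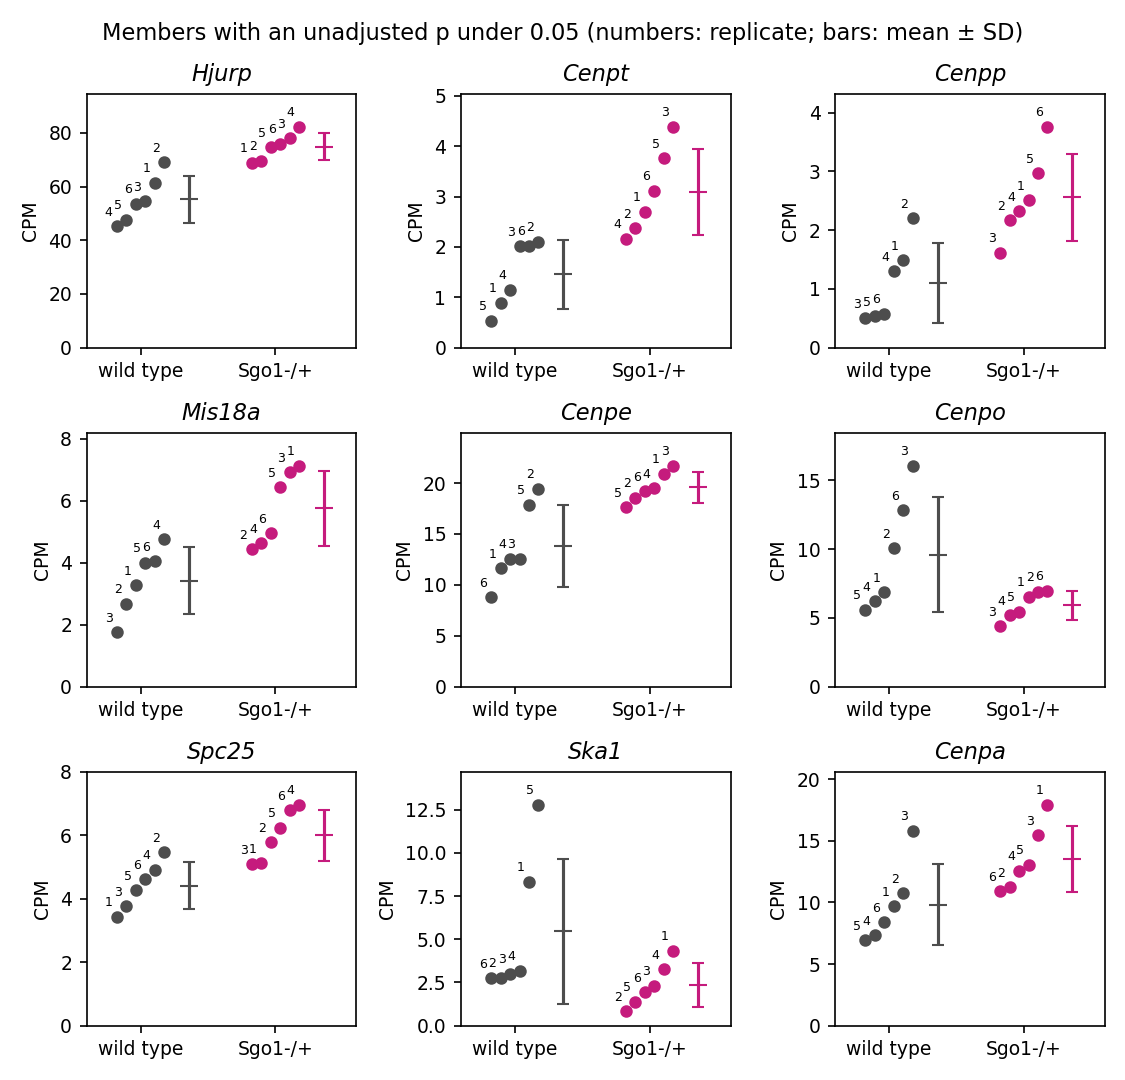
CPM in each library for the 9 members with an unadjusted p under 0.05 in edgeR, in order of p, with the replicate number at each point and the mean ± SD (n = 6) beside each genotype. Cenpt has separate genotypes, the other 8 overlap, and the wild type level of Ska1 is set by replicates 1 and 5.

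The inner kinetochore, or constitutive centromere-associated network, links CENP-A nucleosomes to the outer layer. Of its 12 genes 10 were above 0, against 49% of all genes, with a median of 0.28. At an unadjusted p under 0.05 in edgeR 2 were higher and 1 lower, against 4.31% and 4.73% of all genes. The summed level was 35.5 to 56.8 CPM in wild type and 44.3 to 57.9 CPM in Sgo1-/+, so the genotypes overlapped.

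Cenpt encodes the inner protein whose long tail recruits Ndc80 directly (ENSMUSG00000036672, chromosome 8, positions 105844678 to 105852008). It was at 0.533, 1.58 and 2.11 CPM in wild type and at 2.16, 2.91 and 4.39 CPM in Sgo1-/+. All 6 Sgo1-/+ libraries were above all 6 wild type libraries, though the nearest were only 2.11 and 2.16 CPM. Cenpt was the single member with separate genotypes, 2.70% of members, against 0.223% of all genes separate in that direction and 0.122% in the other. The log2 change was 1.03 ± 0.33 (SE; unadjusted p = 0.00775, adjusted p = 0.505 in edgeR), and it rested on 2 to 37.7 counts per library.

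Cenpp, of the CENP-O, P, Q and U subcomplex (ENSMUSG00000021391, chromosome 13, positions 49464027 to 49652746), was at 0.503, 0.938 and 2.20 CPM in wild type and at 1.62, 2.41 and 3.76 CPM in Sgo1-/+. Wild type replicate 2 was the one wild type library within the Sgo1-/+ range, and 2 wild type libraries held 2 counts each. The log2 change was 1.13 ± 0.37 (SE; unadjusted p = 0.00897, adjusted p = 0.521 in edgeR). Exons of Cenpp share 315 bases, 12.3% of its exon model, with the opposite-strand gene Ippk, and whether reads were counted by strand is not stated in the sources used here. Reads of the pair may therefore not be separated.

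Cenpo, of the same subcomplex (ENSMUSG00000020652, chromosome 12, positions 4196004 to 4234294), lay the other way. It was at 5.60, 8.46 and 16.1 CPM in wild type and at 4.39, 6.00 and 6.97 CPM in Sgo1-/+. Wild type replicates 2, 3 and 6 were above every Sgo1-/+ library and replicates 1, 4 and 5 were within their range. It had a log2 change of -0.69 ± 0.26 (SE; unadjusted p = 0.0205, adjusted p = 0.527 in edgeR). Its exons share 1380 bases with the opposite-strand gene Adcy3 and 252 with Ptrhd1, 19.0% and 3.47% of its exon model. Mean counts per library were 3.75 for Adcy3 and 237.3 for Ptrhd1, beside 59.9 for Cenpo.

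Cenpc1, which binds CENP-A nucleosomes and the Mis12 complex, was the most abundant inner gene, at 6.40, 9.20 and 13.2 CPM in wild type and 8.31, 12.0 and 15.4 CPM in Sgo1-/+. Its genotypes overlapped, with a log2 change of 0.35 ± 0.21. The log2 changes of Cenpl and Cenpn, whose proteins form a pair at the CENP-A nucleosome, were 0.33 ± 0.19 and 0.072 ± 0.40. Of the CENP-H, I, K and M group Cenph was at 0.29 ± 0.28, Cenpi at 0.12 ± 0.25, Cenpk at -0.24 ± 0.26 and Cenpm at 0.69 ± 0.39. Cenpq, which shares the subcomplex of Cenpo and Cenpp, was at 0.24 ± 0.36, and Cenpw, a histone-fold partner of CENP-T, at 0.28 ± 0.38. None of these 9 had an unadjusted p under 0.05 in edgeR, and the smallest was 0.0983, for Cenpl.

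The outer kinetochore holds the Ndc80 complex, which grips microtubules, the Mis12 complex, which anchors it, and Knl1, listed as Casc5, the platform for checkpoint proteins. Of these 9 genes 7 were above 0, against 49% of all genes, with a median of 0.23. Spc25 alone had an unadjusted p under 0.05 in edgeR, where 9.04% of all genes did. The summed level was 46.5 to 78.7 CPM in wild type and 60.97 to 70.7 CPM in Sgo1-/+.

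Spc25 (ENSMUSG00000005233, chromosome 2, positions 69193895 to 69206194) encodes an Ndc80 complex subunit of the end that faces the centromere. It was at 3.43, 4.44 and 5.46 CPM in wild type and at 5.08, 6.01 and 6.96 CPM in Sgo1-/+. Only wild type replicate 2 reached into the Sgo1-/+ range, and the log2 change was 0.44 ± 0.18 (SE; unadjusted p = 0.0295, adjusted p = 0.530 in edgeR). The other 3 subunits were at 0.61 ± 0.35 for Ndc80, 0.45 ± 0.36 for Nuf2 and 0.025 ± 0.26 for Spc24, the partner of Spc25.

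Mis12, the most abundant outer gene, was at 10.4, 17.0 and 23.2 CPM in wild type and at 9.70, 15.4 and 19.1 CPM in Sgo1-/+. The genotypes overlapped, with a log2 change of -0.11 ± 0.21. Its exons share 231 bases with Derl2 on the opposite strand. The other Mis12 complex genes were at 0.37 ± 0.31 for Dsn1, 0.15 ± 0.22 for Pmf1 and -0.34 ± 0.24 for Nsl1. Casc5 was at 0.23 ± 0.24, with wild type replicate 2 the highest of all 12 libraries.

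The SKA complex tracks microtubule ends and steadies the Ndc80 attachment. Its 3 genes did not share a direction. Ska1 (ENSMUSG00000036223, chromosome 18, positions 74195299 to 74207818) was at 2.74, 3.09 and 12.8 CPM in wild type and at 0.826, 2.12 and 4.34 CPM in Sgo1-/+. Wild type replicates 5 and 1, at 12.8 and 8.35 CPM, stood above the other 10 libraries, which all lay at 4.34 CPM or less. Ska1 had a log2 change of -1.19 ± 0.49 (SE; unadjusted p = 0.0296, adjusted p = 0.530 in edgeR), and -0.77 without wild type replicate 5. Ska2 was at -0.075 ± 0.26 and Ska3 at 0.50 ± 0.35.

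Among the RZZ and corona genes 2 of 5 were above 0, against 49% of all genes, with a median of -0.030. RZZ brings dynein and the checkpoint proteins Mad1 and Mad2 to unattached kinetochores, and CENP-E is the kinesin that carries chromosomes toward the spindle equator. Cenpe (ENSMUSG00000045328, chromosome 3, positions 135212563 to 135273540) was at 8.80, 12.6 and 19.4 CPM in wild type and at 17.6, 19.3 and 21.7 CPM in Sgo1-/+. Wild type replicates 2 and 5 lay within the Sgo1-/+ range and the other 4 below it, at 12.6 CPM or less. Cenpe had a log2 change of 0.50 ± 0.18 (SE; unadjusted p = 0.0127, adjusted p = 0.524 in edgeR).

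Cenpf, a large corona protein that peaks in G2, was at 16.6, 21.1 and 37.9 CPM in wild type and at 16.2, 24.5 and 29.3 CPM in Sgo1-/+. The wild type mean was the higher, 24.4 against 23.8 CPM, and the wild type median the lower, because replicate 5 reached 37.9 CPM. The log2 change was -0.030 ± 0.20, and 0.13 without that library. The RZZ genes were at 0.079 ± 0.12 for Zw10, -0.17 ± 0.26 for Zwilch and -0.29 ± 0.38 for Kntc1. Zwilch and Kntc1 also had their highest library in wild type replicate 5, and without it their values were 0.024 and 0.13.

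Nup107 and Nup133 belong to a nuclear pore subcomplex, part of which moves to kinetochores in mitosis. Nup133 was at 3.18, 5.18 and 7.85 CPM in wild type and at 4.13, 6.24 and 8.17 CPM in Sgo1-/+. Log2 changes were 0.17 ± 0.27 for Nup133 and 0.33 ± 0.33 for Nup107. Cenpj is a centriole assembly gene in spite of its name, and was at 4.62, 5.68 and 9.09 CPM in wild type and 3.21, 5.52 and 8.88 CPM in Sgo1-/+. Its log2 change was -0.14 ± 0.27, and the genotypes of all 3 genes overlapped.

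**Figure D4:**
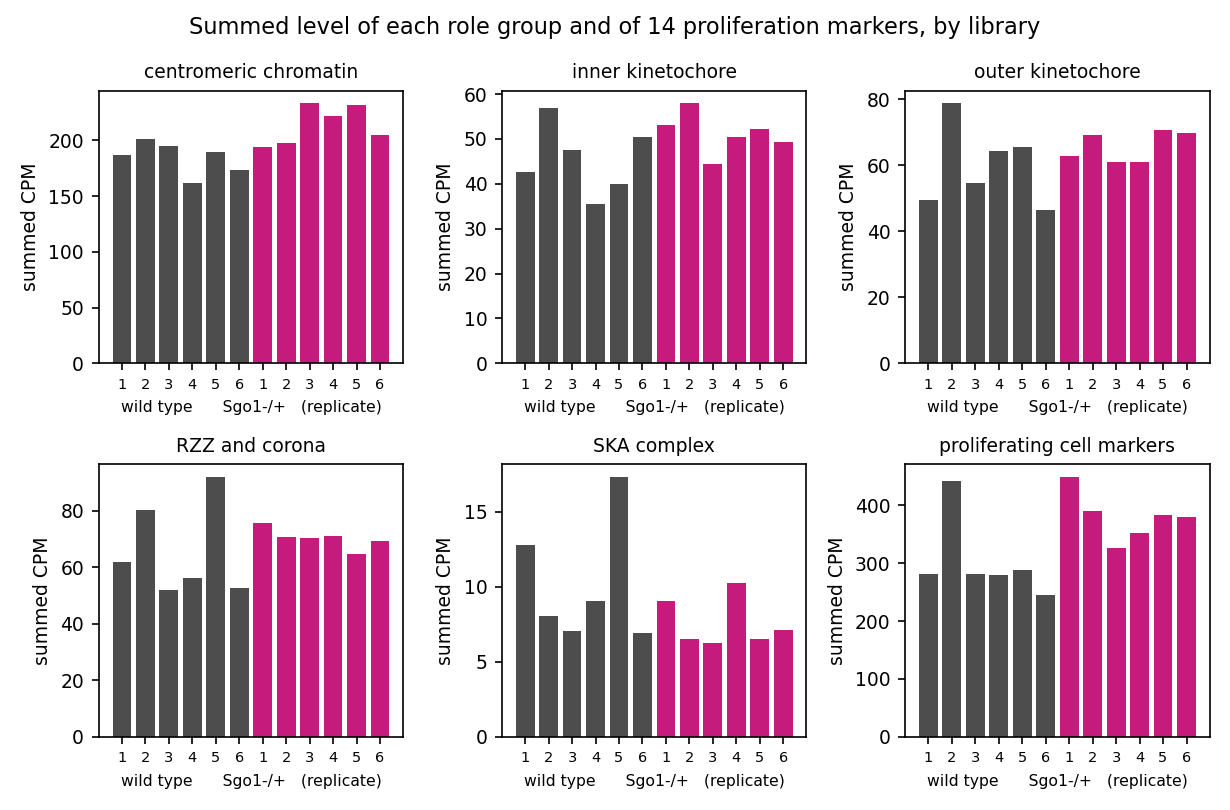
Summed CPM per library for 5 role groups and for 14 proliferation markers, with wild type in dark grey and Sgo1-/+ in magenta and the replicate number below each bar. Wild type replicate 2 is the highest wild type library for the outer kinetochore (78.7) and the proliferation markers (441), while wild type replicate 5 is highest of all for the RZZ and corona (92.0) and SKA (17.3) groups.

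The role groups did not vary alike across wild type libraries. Wild type replicate 2 had the highest sum of the outer kinetochore genes, 78.7 CPM, and it also had the highest proliferation sum of its genotype, 441 CPM. Wild type replicate 5 had the highest sums of the SKA genes, 17.3 CPM, and of the RZZ and corona genes, 92.0 CPM, at a proliferation sum of 288 CPM near that of wild type replicates 1, 3 and 4. Summed over all 37 members the level was 344 to 447 CPM in wild type, with a median of 369, and 415 to 445 CPM in Sgo1-/+, with a median of 423. Wild type replicates 2 and 5 lay within or above the Sgo1-/+ range and the other 4 wild type libraries below it. Cenpb and Hjurp, with means of 116 and 65.1 CPM, weigh most in that sum. With members weighted alike, as mean log2 CPM, wild type replicate 5 was at 2.459, below the lowest Sgo1-/+ library at 2.487. Wild type replicate 2, at 2.766, was above the highest Sgo1-/+ library at 2.699.

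A list of 34 other kinetochore genes, of checkpoint, passenger complex, microtubule-binding and remaining pore and CENP genes, was read beside the members. Of the 33 tested, 25 were above 0, where 49% of all genes were, with a median of 0.175. At an unadjusted p under 0.05 in edgeR, where 4.31% of all genes were higher and 4.73% lower, 0 were lower and 4 higher. These were the checkpoint kinase gene Bub1 at 0.88 ± 0.23, the passenger complex gene Incenp at 0.74 ± 0.20, the checkpoint gene Mad2l1 at 0.71 ± 0.25 and the mitotic kinase gene Plk1 at 0.36 ± 0.13, with adjusted p-values from 0.4913 to 0.5262. Bub1 was at 2.31 to 4.50 CPM in wild type and 4.06 to 7.81 CPM in Sgo1-/+, so that wild type replicate 2 alone overlapped. The lowest of the list, at -0.67 ± 0.32, was Sgol1 itself. The list was written with earlier results of these data known, so it is no separate support.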

How the data were processed

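Messenger RNA of mouse colonic mucosa was sequenced on an Illumina MiSeq from TruSeq libraries, per the labels' protocols. The submitters' processing notes name build mm10 and DESeq. The aligner and counter, and whether strand was used in counting, are not stated in the sources used here. The authors deposited 1 file per sample with 38592 rows and a raw and a normalized column, per the file headers. Raw values deposited by the authors have the form of expected counts, 69.6% of those above 0 not being whole. Normalized values deposited by the authors are on a log2 scale: recomputing them from the raw columns with size factors and the gene median subtracted gave 100.0% of 463104 values within 0.001. They entered no test.

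For testing, counts were rounded. Rows with no Ensembl identifier (505, with 1.79% to 5.40% of each library) were dropped, leaving 38087 genes. No 2 libraries were identical, and replicates differed by a chi-square of at least 16.3 per degree of freedom. The 2 genotypes were compared with edgeR 4.0.16 in R 4.3.3 (TMM factors, filterByExpr, glmQLFit and glmQLFTest, 13889 genes), adjusting p by Benjamini-Hochberg over all genes at a threshold of 0.05. Each SE is the size of the log2 change over the root of its F statistic. DESeq2 1.42.0, limma-voom (limma 3.58.1), other scalings, filters, covariates and libraries left out were alternatives. Sgo1 was compared by exact permutation over 924 splits. The fit was first tested on simulated data. Exon models and overlaps came from GENCODE M21. Named with levels in each genotype are members with an unadjusted p under 0.05 and the member of each role with the highest mean CPM, not divided by length. The members, lists and alternatives were chosen with earlier results of these data known. Results of 1 marker list are not reported here.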

Additional observations from a re-analysis of the deposited data

Results flagged for a closer look

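In 7 of 94 groups of 6 libraries, over members and markers, 1 library stood far from the nearest of the others, where chance gives about 1 in 20. In wild type, replicate 5 was high for Spc24 (12.8 CPM, next 7.76), and replicate 2 for Casc5 (13.0, next 7.65), Mki67 (128.6, next 77.8) and the summed proliferation markers (441.2, next 287.9). In Sgo1-/+, replicate 3 was high for Oip5 (2.77 CPM, next 1.93), replicate 1 was high for Cenph (3.95, next 2.89), and replicate 1 was low for Nsl1 (2.31, next 4.08).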

How the results depend on the processing

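The 9 members with an unadjusted p under 0.05 kept their sign in all 23 alternatives, and 20 of 37 members did so. The 9 were picked from the same libraries that the alternatives reuse, so their kept sign is no separate support. The members' median log2 change was 0.129 to 0.331 with 1 library left out (lowest without wild type replicate 1, highest without wild type replicate 2), 0.5118 with library totals alone and 0.383 within libraries with the suffix. The number at an unadjusted p under 0.05 was 9, against 9.04% of all genes, and 1 within libraries without the suffix, against 3.98%. With 1 library left out it was 6 to 12. The lowest, without wild type replicate 1, stood against 7.82% of all genes. The highest, without wild type replicate 2, stood against 13.35%. The Sgo1 difference was -0.6935 to -0.2727 with 1 library left out. Correlations of deviations between same-numbered libraries were -0.298 to 0.454, highest for replicate 3. They do not settle whether the replicate numbers pair the libraries. With the replicate block the median was 0.2016, and the Sgo1 difference had an exact p of 0.1562. In that fit 8 members were higher and 2 lower at an unadjusted p under 0.05, against 10.69% of all genes. The other members reversed as follows, and the cause was not tested. With library totals: Oip5 0.2156, Cenpk 0.02842, Mis12 0.2323, Ska2 0.2612, Zwilch 0.1132, Kntc1 0.05091, Cenpf 0.3158, Cenpj 0.1365. For Oip5 and Cenpf the values were 0.02827 and 0.01003 without the filter, 0.07045 and 0.03312 in limma-voom, and 0.1778 and 0.01065 with the replicate block. Oip5 was at 0.07357 with the suffix as a term. Within libraries without the suffix: Cenpb -0.01493, Cenpn -0.1863, Spc24 -0.1885, Nup133 -0.2132, Cenpj 0.3633. Within those with it: Oip5 0.6001, Cenph -0.4047, Cenpi -0.005999, Mis12 0.4235, Zw10 -0.1384, Cenpf 0.2262. With the share of mitochondrial-like counts as covariate: Kntc1 0.01437, Nup107 -0.1547, Nup133 -0.03624. Without the 3 libraries of highest share, an alternative chosen after seeing the data: Pmf1 -0.04467, Ska2 0.02187, Zw10 -0.04051, Kntc1 0.05524, Cenpf 0.1455. With 1 library left out the ranges were -0.1741 to 0.331 for Oip5, -0.1086 to 0.1297 for Cenpf, -0.1071 to 0.3985 for Cenpn, -0.05878 to 0.2729 for Spc24, -0.2086 to 0.02095 for Mis12, -0.3103 to 0.02411 for Zwilch, -0.4775 to 0.1344 for Kntc1, -0.225 to 0.07002 for Ska2, -0.007725 to 0.2887 for Pmf1, -0.01231 to 0.2282 for Cenpi and -0.2785 to 0.002446 for Cenpj. Depth limits the group: 8 members had a library under 5 counts.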

Other observations

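Many members varied more among wild type than among Sgo1-/+ libraries. The SD of log2 CPM was larger in wild type for 31 of 37 members, 83.8%, beside 59.4% of all genes tested. Its median over members was 0.506 in wild type and 0.326 in Sgo1-/+, beside 0.355 and 0.315 over all genes. Among members with an unadjusted p under 0.05 it was 0.225 and 0.098 for Hjurp and 0.413 and 0.109 for Cenpe. These are descriptions with no test. All genes were not matched to the members in level, and 13 members had a mean under 30 counts. Wild type replicates 3 and 5 were 2 of the 3 libraries richest in mitochondrial-like counts. The part of count level and depth in these SDs was not tested.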
